A study of Canis lupus familiaris with 51 samples.

Results

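The nuclear genes of oxidative phosphorylation were taken as every array probe whose gene name begins with NDUF, UQCR, SDHA, SDHB, SDHC, SDHD or ATP5, or with COX and a digit from 4 to 8. The rule found 62 probes of 44 genes, among 43603 probes carrying 35619 gene and transcript names. They were measured in cutaneous mast cell tumors (MCTs) of 51 dogs, 1 array per tumor, on a 1-color canine oligonucleotide array. The study had chosen 18 of the tumors as reference MCTs by histological grade and mitotic count, 5 undifferentiated (T9, T57, T73, T90 and LM0) and 13 differentiated. The other 33 tumors had been assigned by the study from the expression of class markers on these same arrays, 7 as undifferentiated and 26 as differentiated. The sample labels give no class. It was taken by case name from the study, for reference tumors from its supplement and for the others by reading its class prediction plot, and LM0 was matched to its case by elimination. The dogs were of many breeds, 30 female, 19 male and 2 of unstated sex, aged from 3 to 14 years. Sex was uneven between the classes, as 4 of 30 females and 7 of 19 males had undifferentiated tumors. Ages ran from 5 to 13 years in the undifferentiated and from 3 to 13 years in the differentiated reference group, and from 6 to 14 and from 4 to 13 years in the corresponding groups of other tumors. All tumors were spontaneous, and no treatment group was compared here. Each tumor was a piece of the central mass, so a change in the share of a cell type and a change in RNA per cell cannot be told apart.

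Oxidative phosphorylation takes place in the inner mitochondrial membrane. Complex I passes electrons from NADH, and complex II from succinate, through ubiquinone to complex III, cytochrome c and complex IV, which reduces oxygen. Complexes I, III and IV pump protons, and complex V, the ATP synthase, makes ATP as the protons flow back. The array names covered complex I best, with 5 core subunits, 23 accessory subunits and 2 assembly factors. Complex II was represented by SDHA and SDHC, complex IV by NDUFA4, and complex V by 8 subunits. No gene name began with UQCR, so no member belonged to complex III. NDUFA4L2, a paralog of NDUFA4 known as a hypoxia-induced gene, was a further member, as was ATP5S, a gene first described as an ATP synthase factor. COX4NB entered through its name alone. It is the neighbor of COX4 (EMC8) and encodes a subunit of a protein insertion complex of the endoplasmic reticulum, not of the respiratory chain.

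Sequences are given for the 5 probes on which the class differences in NDUFS1, ATP5B and ATP5D rested or in which a second probe differed. All are 60 bases long and are printed as the array annotation lists them, which names no genome build.
NDUFS1 (brighter probe): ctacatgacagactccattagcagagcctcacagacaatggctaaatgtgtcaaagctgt
NDUFS1 (dimmer probe): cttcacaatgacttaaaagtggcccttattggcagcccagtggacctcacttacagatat
ATP5B (brighter probe): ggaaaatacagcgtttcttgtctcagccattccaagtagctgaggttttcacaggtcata
ATP5B (dimmer probe): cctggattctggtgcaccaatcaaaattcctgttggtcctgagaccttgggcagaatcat
ATP5D: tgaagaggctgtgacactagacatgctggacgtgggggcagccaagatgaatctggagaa
The NDUFS1 probes map to the minus strand of chromosome 37, the brighter at 17682965 to 17685036 and the dimmer at 17698220 to 17698279. The first of these intervals is 2072 bases long and the second 60, so the brighter probe spans a gap in the genome and the dimmer lies in 1 unbroken stretch. The ATP5B probes map to chromosome 10, the brighter at 3854762 to 3854821 and the dimmer at 3858860 to 3858919. The ATP5D probe maps to chromosome 20 at 60688532 to 60688744, across 213 bases. All 5 lie on the minus strand.

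The members were detected almost throughout. Of the 62 probes, 58 were well above background on all 51 arrays, compared with 22793 of 43603 over the whole array. The probes for NDUFB9, NDUFS4 and ATP5G3 were not well above background on any array, so their values set no level for these genes. NDUFA4L2 was well above background in 50 tumors. Over the arrays, 59.4 to 74.8% of the spots were well above background, and between 2 and 35 spots per array were flagged as outliers, none of them in a member. The values of any 2 of the 51 arrays correlated at 0.907 to 0.988. Mast cell markers such as KIT, the receptor for stem cell factor, and CMA1, the mast cell chymase, were well above background in all 51 tumors, as were the other 4 mast cell markers measured.

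The levels of most members varied little between tumors. Values are log2 quantile-normalized intensities, with 1 probe per gene, the brightest. The SD over the 51 tumors ranged from 0.15 to 1.59 across the 44 genes, with a median of 0.26. The median over the probes well above background on all arrays was 0.41. The most even genes were NDUFS5 with an SD of 0.15, NDUFV2 with 0.17 and NDUFB11 with 0.17, all subunits of complex I. The least even was NDUFA4L2 with an SD of 1.59, followed by NDUFAF2, a complex I assembly factor, with 0.51. ATP5G3, ATP5D and COX4NB came next with SDs of 0.38, 0.36 and 0.35. The ATP5G3 value is that of a probe not above background.

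**Figure D1:**
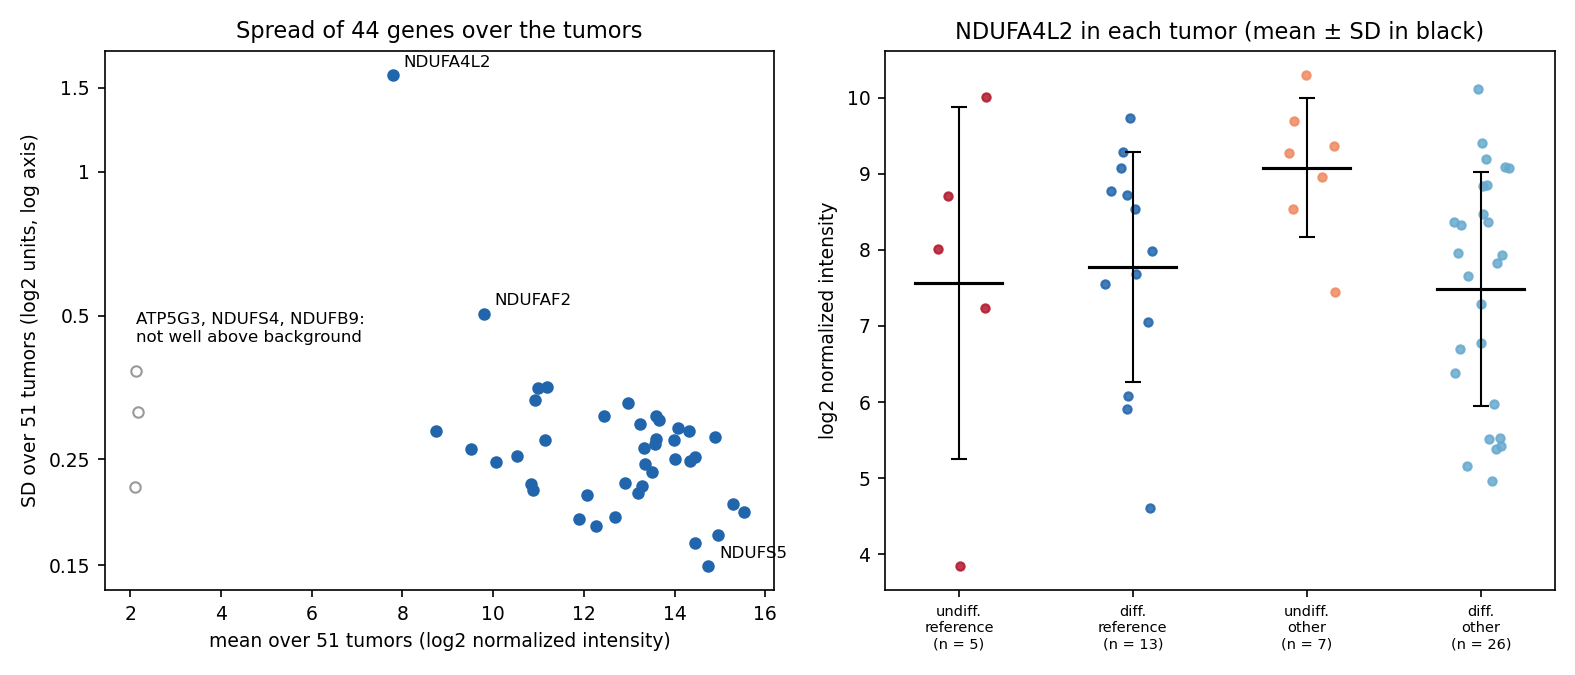
Left, SD against mean of each of the 44 genes over 51 tumors, in log2 units with the SD on a log axis, where open circles are the 3 probes not well above background on any array. Right, log2 intensity of NDUFA4L2 in each tumor by group, with the mean and SD in black. NDUFA4L2 has the highest SD, 1.59, and the groups of tumors overlap.

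The first class comparison asked which members differed between undifferentiated and differentiated reference MCTs. Among 44 genes, 5 were higher and 3 lower in undifferentiated tumors, at a Benjamini-Hochberg adjusted p under 0.05 over all 43603 probes in limma's moderated test. The higher genes were NDUFS1, NDUFA8, the assembly factors NDUFAF1 and NDUFAF2, and COX4NB. Among the lower genes were NDUFS5 and NDUFB10. Counted by probes, 5 were higher and 4 lower among 62, which is 14.5%. Over all probes 4.39% were called higher and 3.69% lower, and of the probes well above background on all arrays 10.8% were called in either direction. The share of member probes was thus close to that of other well detected probes, and the share of genes was 18.2%. No member passed the study's own limits, an adjusted p under 0.01 with a fold of at least 2, which 1.85% of all probes passed. The 44 differences ran from -0.56 to 0.86 in log2 units, with a median of 0.07 against 0.03 over probes well above background on all arrays. Without LM0 the median of the 44 was -0.03.

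NDUFA8, an accessory subunit of complex I, was higher in every undifferentiated reference tumor than in any differentiated one. Its levels were 12.77 in T9, 12.68 in T57, 12.66 in T73, 12.95 in T90 and 13.11 in LM0, and 12.097 to 12.58 with a median of 12.32 in the 13 differentiated tumors. The difference was 0.52 (SE 0.10), a 1.43-fold change with an adjusted p of 0.00298 in limma. Within the 4 scan sessions that held both groups it ranged from 0.31 to 0.58. Each of these sessions held a single undifferentiated reference tumor, and LM0 was in none of them. As the groups did not overlap, the sign within a session could only be positive.

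NDUFS5, another accessory subunit, showed the opposite order with no overlap between groups. Its levels were 14.47, 14.61, 14.51, 14.63 and 14.30 in T9, T57, T73, T90 and LM0, and 14.66 to 14.92 in the differentiated tumors, with a median of 14.81. The difference was -0.30 (SE 0.07; adjusted p = 0.0150 in limma), a 1.23-fold change in a gene whose SD over all tumors was the smallest of the 44. NDUFA8 and NDUFS5 were the only members whose reference groups did not overlap. The share of all probes with such groups was not counted, so this is a description of these members only.

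NDUFS1 encodes the largest core subunit of complex I, which carries iron-sulfur clusters of its peripheral arm. Its brighter probe gave 11.03 in T9, 10.68 in T57, 10.47 in T73, 11.23 in T90 and 10.82 in LM0, against 10.24 to 10.81 with a median of 10.38 in differentiated tumors. The groups overlapped, with T57 and T73 inside the differentiated range. The difference was 0.44 (SE 0.12; adjusted p = 0.0274 in limma). It was not called with age as a covariate (0.38, adjusted p = 0.0708) or without T9 (0.39, 0.0717) or T90 (0.34, 0.0819). The dimmer probe, printed above, gave 0.26 (SE 0.14) and an adjusted p of 0.291, and the 2 probes correlated at 0.475 over the 51 tumors, so the NDUFS1 call rests on the brighter one.

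NDUFB10, an accessory subunit of the membrane arm, had levels of 10.81 in T9, 10.44 in T57, 10.37 in T73, 10.13 in T90 and 10.26 in LM0. The differentiated tumors lay at 10.54 to 11.43 with a median of 10.97, and only T9 fell inside that range. The difference was -0.56 (SE 0.14; adjusted p = 0.0162 in limma). It was negative in all 4 scan sessions with both groups, from -0.87 to -0.44, each resting on a single undifferentiated tumor and none on LM0.

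The 2 assembly factors were higher, NDUFAF2 by the largest difference of any member. NDUFAF2 measured 10.07, 10.56, 9.63, 10.71 and 10.98 in T9, T57, T73, T90 and LM0, against 9.05 to 10.02 with a median of 9.55 in differentiated tumors. All but T73 lay above the differentiated range. The difference was 0.86 (SE 0.19), a 1.81-fold change with an adjusted p of 0.0106 in limma, although within 1 of 4 scan sessions it was -0.01, as that of NDUFAF1 was -0.02. NDUFAF1 measured 11.37, 10.84, 11.16, 11.72 and 11.01 in T9, T57, T73, T90 and LM0, and 10.66 to 11.04 in differentiated tumors, a difference of 0.42 (SE 0.11; adjusted p = 0.0282 in limma). It was not called with age as a covariate (0.41, adjusted p = 0.0561) or without T9 (0.38, 0.0696) or T90 (0.30, 0.0766). Only T57 and LM0 fell within the differentiated range. COX4NB rose by 0.61 (SE 0.14; adjusted p = 0.0118 in limma), from levels of 10.51 to 11.23 in differentiated to 10.98 to 11.85 in undifferentiated tumors.

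No complex V subunit was called in the reference tumors. Their differences ran from -0.12 for ATP5F1, a peripheral stalk subunit, to 0.23 for ATP5C1, the gamma subunit of the rotor. The interval was -0.07 to 0.54 for ATP5C1.

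The reference calls moved with the scaling and with batch terms. Scaling each array by its 75th percentile in place of quantiles left 6 genes higher and 0 lower. NDUFS5 (-0.11, adjusted p = 0.571) and NDUFB10 (-0.50, 0.0560) kept their sign but were no longer called by limma, and the median over the 44 genes rose to 0.19. With slide as a fixed block no member was called, and only 2 slides held both classes (2 undifferentiated and 4 differentiated tumors), and with scan session as a fixed block 3 were.

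**Figure D2:**
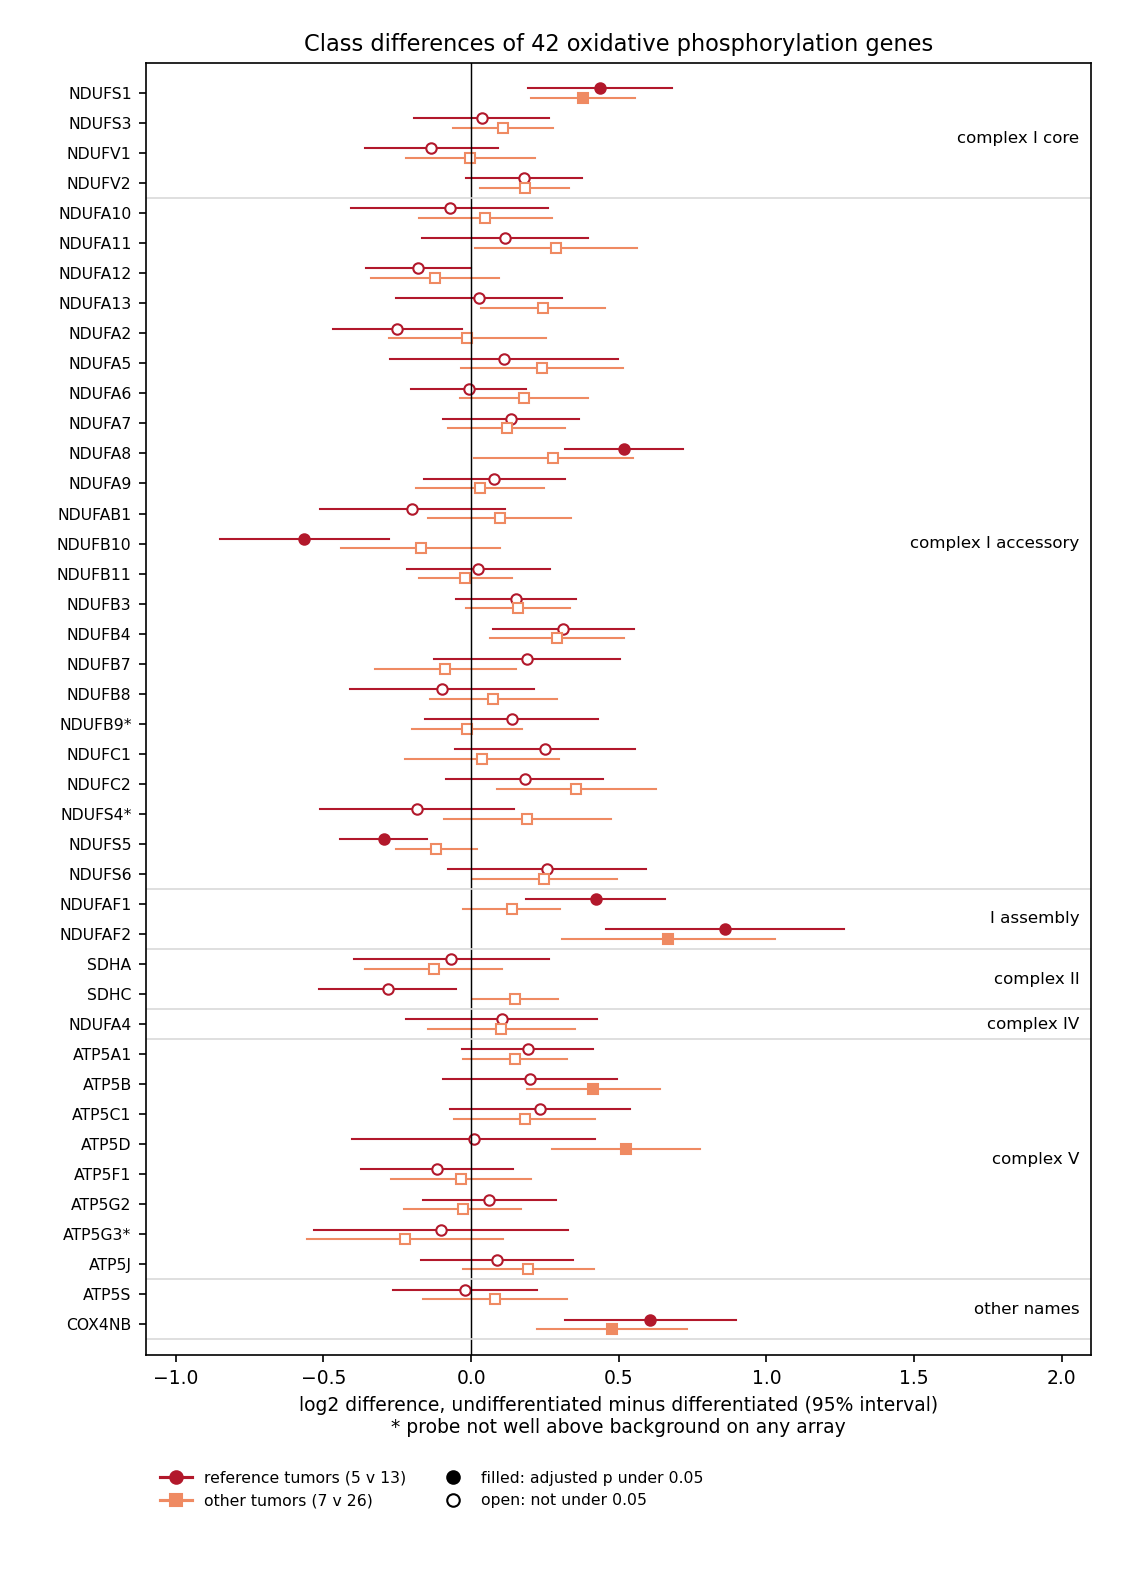
Log2 difference, undifferentiated minus differentiated, of 42 genes (the horizontal axis, with 95% intervals) in reference tumors (circles) and other tumors (squares), grouped by complex. NDUFA4L2 is left out for its wide intervals. Filled symbols mark an adjusted p under 0.05, which 5 genes reached in the other tumors, all on the higher side.

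The same question was asked in the 33 other tumors, none of which entered the first comparison. There 5 of the 44 genes were called by limma, all higher in undifferentiated tumors: NDUFS1, NDUFAF2, ATP5B, ATP5D and COX4NB. By probes this was 6 of 62 higher (9.68%) and 0 lower, where 3.2% of all probes were called higher and 2.66% lower, and 8.73% of the probes well above background were called. Of the 22793 well detected probes, 1022 were called higher and 968 lower. With both directions together, the share of member probes called was again near that of well detected probes, and that of genes was 11.4%. All the called members were on the higher side. No member passed the study's limits, which 1% of all probes passed. The median difference over the 44 genes was 0.13, against -0.05 over the probes well above background on all arrays. Of the 44 genes, 31 were on the higher side, 70.5%, against 43.3% of those probes.

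ATP5B encodes the catalytic beta subunit of the ATP synthase and was one of the study's internal control genes in quantitative PCR. In its quantitative PCR the study reported no significant class difference in its control genes and used their mean. The array values here are another measure, compared in separate sets of tumors, so they do not test that statement. On the arrays the brighter ATP5B probe measured 14.42 in T49, 14.64 in T77, 14.93 in T80, 14.60 in T104, 14.40 in T114, 14.61 in T115 and 14.89 in T132. The 26 differentiated tumors lay at 13.57 to 14.61 with a median of 14.22. Every undifferentiated tumor was thus above the differentiated median, and the groups overlapped. The difference was 0.41 (SE 0.11), a 1.33-fold change with an adjusted p of 0.0209 in limma. The dimmer probe gave 0.49 (SE 0.14; adjusted p = 0.0343 in limma). In the reference tumors the brighter probe gave 0.20, with an interval of -0.10 to 0.50, and the dimmer 0.02 (adjusted p = 0.419 and 0.957 in limma). Reference levels were 14.63, 14.39, 13.95, 14.32 and 14.89 in T9, T57, T73, T90 and LM0, and 13.88 to 14.53 in the differentiated group. The ATP5B call was lost with sex as a covariate (0.35, adjusted p = 0.0915 in limma), with age as a covariate (0.39, 0.0697), and without T80 (0.37, 0.0699) or T132 (0.37, 0.0611). T132 has no stated sex or age, so the fits with either covariate also left it out. The part of the covariate and that of leaving out T132 cannot be told apart.

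ATP5D, the delta subunit of the rotor, measured 11.03 in T49, 11.39 in T77, 11.98 in T80, 11.42 in T104, 11.89 in T114, 11.78 in T115 and 11.83 in T132. Differentiated tumors lay at 10.49 to 11.56 with a median of 11.14. T80, T114, T115 and T132 were above that range and the other 3 inside it. The difference was 0.52 (SE 0.12; adjusted p = 0.00851 in limma). In the reference tumors it was 0.01 (SE 0.20), where T9, at 10.19, had the lowest level of all 51 tumors.

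NDUFS1 measured 10.67 in T49, 10.71 in T77, 10.98 in T80, 10.71 in T104, 11.15 in T114, 10.79 in T115 and 10.74 in T132, and 10.01 to 10.80 in the 26 differentiated tumors, with a median of 10.46. The difference of 0.38 (SE 0.09; adjusted p = 0.00651 in limma) was positive in all 4 scan sessions with both groups. The dimmer NDUFS1 probe gave 0.09 (SE 0.09) and was not called. NDUFAF2 measured 9.55 in T77, 10.14 in T49, 10.33 in T115, 10.38 in T104, 10.55 in T80, 10.65 in T132 and 10.88 in T114, against 8.80 to 10.44 in differentiated tumors. Its difference was 0.67 (SE 0.18; adjusted p = 0.0202 in limma), and it was not called with age as a covariate (0.64, adjusted p = 0.0662) or without T80 (0.64, 0.0522), T114 (0.58, 0.0951) or T132 (0.62, 0.0535). The fit with age also left out T132, whose age is not stated. COX4NB was higher by 0.48 (SE 0.13; adjusted p = 0.0185 in limma), and without T114 it was not called (0.44, 0.077).

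The members with the next lowest p values were NDUFC2 (0.36, adjusted p = 0.108), NDUFA4L2 (1.60, 0.110), NDUFB4 (0.29, 0.124), NDUFV2 (0.18, 0.15) and NDUFA13 (0.24, 0.174) in limma, all complex I subunits but NDUFA4L2, and none was called. The difference was -0.12 for NDUFS5 and -0.17 for NDUFB10 here, with adjusted p of 0.355 and 0.551 in limma. NDUFA8 gave 0.28 (SE 0.13; adjusted p = 0.238 in limma), with 6 of 7 undifferentiated tumors at 12.54 to 13.10 and T49 at 11.74. With slide as a fixed block only NDUFAF2 was called, and with scan session as a fixed block NDUFS1, NDUFAF2 and COX4NB were.

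**Figure D3:**
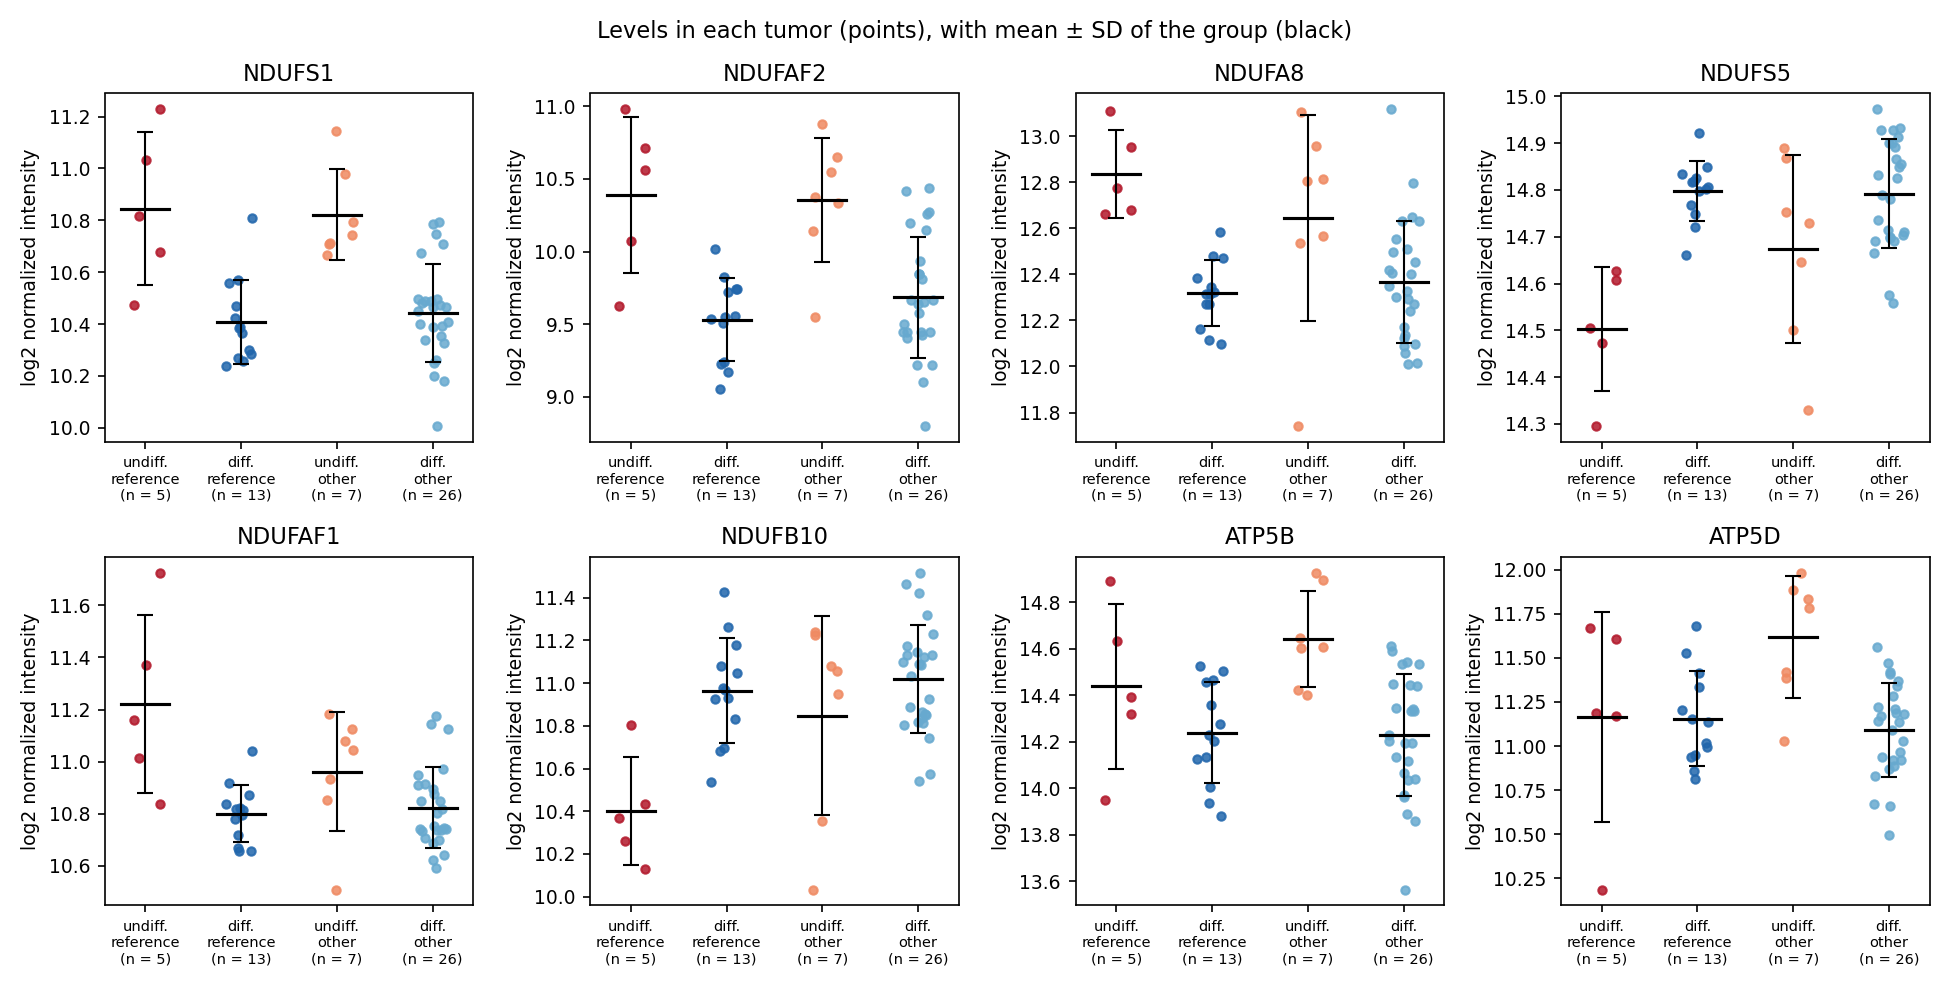
Log2 normalized intensity of 8 genes in each of 51 tumors (points) by group, with the mean and SD of the group in black. The reference groups do not overlap for NDUFA8 and NDUFS5, and the undifferentiated tumors among the others lie at 14.40 to 14.93 for ATP5B.

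Both comparisons called NDUFS1, NDUFAF2 and COX4NB higher, which is 37.5% of the 8 genes called in the reference tumors and 60% of the 5 called in the others. Counted by member probes, these shares were 33.3% and 50%. The matching shares of probes were 25.1% and 31% over the probes well above background, and 23.9% and 32.9% over all probes. Counted by probes, 3 of 62 members were called in both, 4.84%. Of all probes 1.93%, and of the probes well above background 2.71%, were called in both. The sign of the difference was the same in 32 of 44 genes, 72.7%, against 62.1% of well detected probes. The difference between the 2 class differences was tested as an interaction over all 51 tumors. By the brightest probe, 0 of 44 genes were called by limma, and 4 had an unadjusted p under 0.05, as did 5994 of all 43603 probes. By probes 1 of 62 was called, 1.61%, where 0.0963% of all probes were. For ATP5B and ATP5D the interaction was not called, so a difference in their class effect between the sets was not shown.

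The complexes were also summarized per tumor, as the median over genes of each gene's deviation from its mean over 51 tumors. Over the 44 genes this median ran from -0.27 in T102 to 0.30 in T53, both differentiated tumors. T53 also had the second highest mean level of the 14 skeletal muscle markers, 10.93. LM0, the highest undifferentiated reference tumor at 0.22, had the highest, 11.57, where the group medians were 6.87 to 7.26. T106 and T9, next in muscle level at 10.16 and 9.98, lay at -0.02 and 0.06 over the 44 genes. T58, second highest over the 44 genes at 0.24, had a muscle level of 6.64. The part of muscle in these values was not tested. In the reference set the median over the 44 genes lay at -0.19 to 0.22 in undifferentiated and -0.24 to 0.14 in differentiated tumors. In the other tumors the undifferentiated group lay at -0.19 to 0.23 with a median of 0.17, and the differentiated group at -0.27 to 0.30 with a median of -0.03. The groups overlapped over most of their range. For complex V the group medians were 0.17 and -0.03 in undifferentiated and differentiated reference tumors, and 0.21 and 0.01 in the others. For the accessory subunits of complex I they were -0.02 and -0.03, and 0.12 and -0.02. With 75th percentile scaling the difference between the reference medians over all 44 genes moved from 0.08 to 0.31. The same median over all probes well above background on all arrays stayed within -0.12 to 0.13 in every tumor. Quantile normalization keeps a median over so many probes narrow, so it does not show how far 44 other genes would vary. These medians were not tested.

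**Figure D4:**
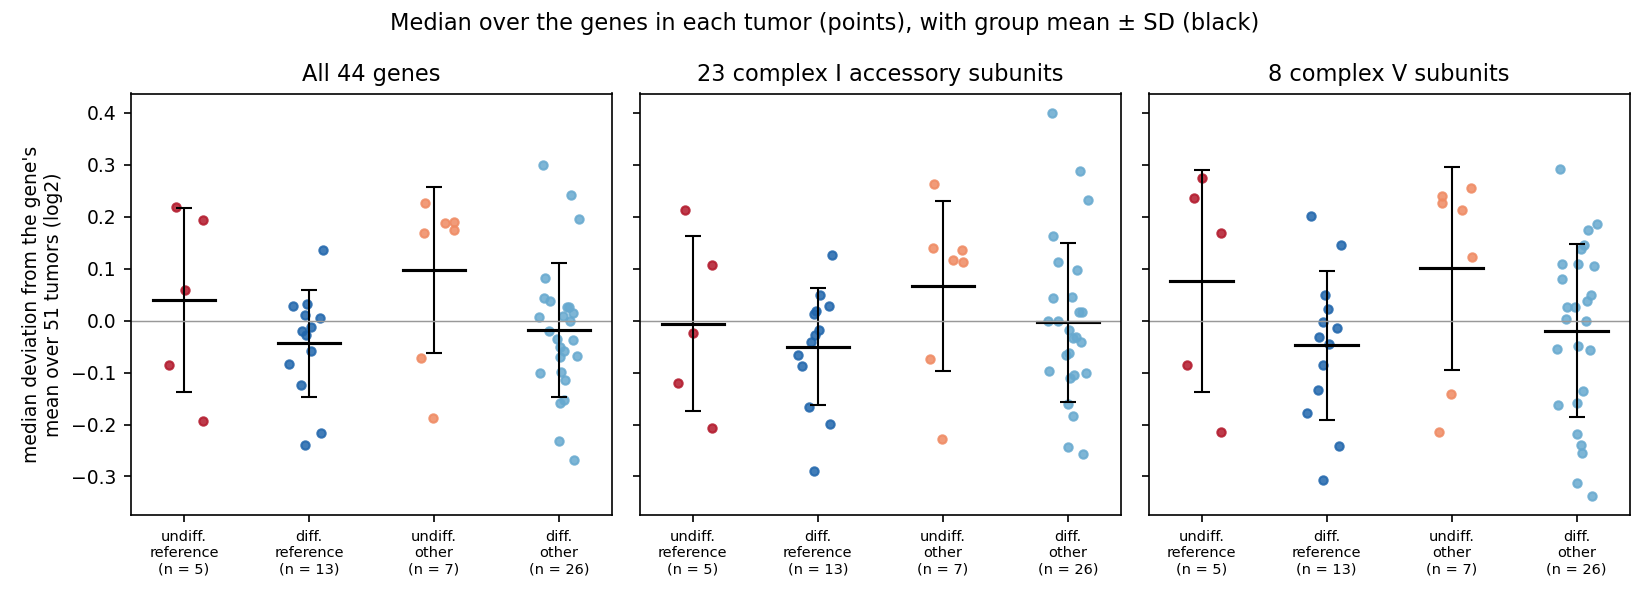
Median deviation (log2) from each gene's mean over 51 tumors, over all 44 genes, 23 complex I accessory subunits or 8 complex V subunits, with 1 point per tumor and the group mean and SD in black. The groups overlap in all panels, and T53, a differentiated tumor, is the highest point over all 44 genes at 0.30.

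Most members moved with the rest of the set. The correlation of each gene with the median of the other 43 over the 51 tumors had a median of 0.557 and exceeded 0.5 for 25 genes. Within the 39 differentiated tumors the median was 0.559. Other probes well above background correlated with the members' median at a median of -0.05, with the middle 50% of them between -0.21 and 0.14. All these values come from the same 51 arrays and share any array effect. Among the genes with the lowest correlations were NDUFS5 (r = -0.0306, rho = 0.0695), NDUFA4L2 (r = 0.0393, rho = -0.0468) and SDHA (r = 0.0804, rho = 0.121), besides the 3 probes not above background. With the median of the other subunits of its own complex, NDUFS5 gave r = 0.106 and rho = 0.182.

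Complex II, which links the citric acid cycle to the chain, was represented by 2 genes and neither was called. SDHA, the flavoprotein subunit, measured 10.66 in T9, 10.90 in T57, 10.97 in T73, 11.89 in T90 and 11.41 in LM0, against 10.97 to 11.52 in differentiated reference tumors. Its difference was -0.07 in the reference tumors (interval -0.40 to 0.26) and -0.13 in the others (interval -0.36 to 0.10). SDHC, a membrane anchor, measured 12.50, 12.86, 12.29, 12.01 and 12.46 in T9, T57, T73, T90 and LM0, against 12.50 to 12.97. Its difference was -0.28 (SE 0.11; adjusted p = 0.125 in limma) in the reference tumors and 0.15 (SE 0.07; adjusted p = 0.240 in limma) in the others. The difference between these values was -0.43 (SE 0.12) and was not called (adjusted p = 0.130 in limma). The other 2 SDHC probes, which share 1 sequence, gave 0.34 and 0.33 in the other tumors.

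NDUFA4L2 spanned a range of 3.85 to 10.29 over the 51 tumors. The undifferentiated reference tumors held 3.85 in T9, the 1 value not well above background, and 10.01 in T57, with T73, T90 and LM0 at 8.02, 7.24 and 8.71. The differentiated reference tumors lay at 4.60 to 9.73. In the other tumors the undifferentiated group measured 7.44 in T115, 8.54 in T77, 8.96 in T80, 9.27 in T49, 9.37 in T132, 9.70 in T104 and 10.29 in T114, and the differentiated group 4.96 to 10.11 with a median of 7.88. Its differences of -0.20 (SE 0.87) and 1.60 (SE 0.59) were not called. NDUFA4, its paralog in complex IV, differed by 0.10 in both comparisons.

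Further subunits and assembly factors lie on the array under locus numbers, and 27 of these genes could be named through the current RefSeq gene table. Among them were 5 assembly factors of complex I and 3 of complex II. They were matched after the array names were seen and are not members by the rule. In the reference tumors 1 was called higher and 1 lower. The higher was NDUFAF4, a complex I assembly factor (0.77, SE 0.18; adjusted p = 0.0134 in limma). The lower was COX7A1, the complex IV isoform of heart and skeletal muscle (-1.32, SE 0.34; adjusted p = 0.0219 in limma). In the other tumors 2 were called, both higher and both small subunits of complex III, UQCR11 (0.54, SE 0.15; adjusted p = 0.0218) and UQCRQ (0.41, SE 0.12; adjusted p = 0.0346). Over the 7 complex III subunits the median difference was 0.10 in the reference tumors and 0.15 in the others. The 3 general complex IV subunits found, COX4I1, COX5A and COX8A, had medians of 0.02 and 0.13, with COX8A at 0.36 and an adjusted p of 0.0508 in the other tumors. Of 13 probes for 12 subunits encoded in the mitochondrial genome, none was called in the reference tumors, where the differences ran from -0.52 to 0.42. In the other tumors 10 of the 13 were on the higher side and 1 was called, for chain 1 of NADH dehydrogenase (0.60, adjusted p = 0.0198 in limma). The largest difference there was on the lower side, for chain 6 (-0.74, adjusted p = 0.087 in limma). Chain 6 was also the lowest in the reference tumors, at -0.52.

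Of the remaining pathway lists, 26 genes of electron carriers and assembly factors had 3 called higher and 0 lower in the reference tumors, and 2 higher and 1 lower in the others. CYCS, the electron carrier cytochrome c, was called higher in both, by 0.94 (SE 0.20; adjusted p = 0.00719) and 0.87 (SE 0.14; adjusted p = 0.000252). Of 14 citric acid cycle genes, 1 was called higher and 2 lower in the reference tumors and 1 higher in the others. IDH3A, the catalytic subunit of the NAD-dependent isocitrate dehydrogenase, was called higher in both, by 0.74 (SE 0.15; adjusted p = 0.00683) and 0.67 (SE 0.12; adjusted p = 0.000465). Of 6 adenine nucleotide translocase and porin genes, VDAC1 and VDAC2, porins of the outer membrane, were called higher in the other tumors (0.30 and 0.40) and none in the reference tumors. None of 14 regulators of mitochondrial biogenesis was called in either set.

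Markers of other cell states were read beside these results. Of 6 proliferation genes, 5 were called higher in undifferentiated tumors in both comparisons, and their mean level separated the classes, at 9.25 to 10.22 against 6.32 to 8.48 in the reference tumors and 8.84 to 9.84 against 6.57 to 8.33 in the others. Reference tumors had been chosen partly by mitotic count, and the others by class markers that include CCNB2, also in this list. This separation was thus partly fixed by how the classes were made. Of 5 neutrophil markers, 0 were called in the reference tumors and 3 higher in the others, with median differences of 2.32 and 2.25. Their mean level was 8.40 to 13.84 in undifferentiated and 7.20 to 10.62 in differentiated reference tumors, and 10.05 to 12.98 and 7.09 to 11.93 in the others. Of 7 keratinocyte markers none was called, but all 7 were on the lower side in the reference tumors, by a median of -2.26, and on the higher side in the others, by 2.5. Their mean levels ran from 2.92 to 13.17 and from 2.73 to 14.29 in undifferentiated and differentiated reference tumors, and from 4.09 to 15.15 and from 2.85 to 14.78 in the others, and KRT1 and KRT10 were well above background in 31 and 30 tumors. Of 6 mast cell markers, 0 were called in the reference tumors and 1, HPGDS, lower in the others (-1.38, adjusted p = 0.0206 in limma). In the others all 6 were on the lower side, by a median of -0.892. In the reference tumors 3 were on the higher side, with a median of 0.0492. Mast cell means lay at 13.18 to 15.30 and 13.78 to 14.95 in undifferentiated and differentiated reference tumors, and at 12.28 to 14.95 and 13.35 to 15.60 in the others. Of 14 skeletal muscle markers 2 were called higher in the reference tumors, and adipocyte (9 genes), fibroblast (8) and macrophage (7) markers had 1 called lower each, with none of these 4 lists called in the others. On the higher side in the reference tumors were 12 muscle, 2 adipocyte, 0 fibroblast and 1 macrophage markers. The median differences were 1.47, -0.502, -0.915 and -0.654. In the others they were 0.14, -0.176, 0.274 and -0.235. None of 6 endothelial and none of 6 T cell markers was called. The part of these cell populations in the differences between members was not tested.

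Neither sex nor age gave a call among the members. With class as a covariate, 0 of 44 genes were called between 30 female and 19 male dogs in limma, and 2 had an unadjusted p under 0.05, as did 1908 of all 43603 probes. Over all probes 0.0642% were called by sex. For age, 0 members and 0% of all probes were called, and the slopes of the 44 genes lay between -0.03 and 0.02 log2 units per year, with 0 genes and 1 probe, the dimmer of ATP5B, at an unadjusted p under 0.05, as were 986 of all probes.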

How the data were processed

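RNA from 51 canine MCTs was hybridized to 1-color Agilent arrays by the authors, who extracted the spot intensity with Agilent Feature Extraction 9.5.1.1, per the file headers, and also deposited a quantile-normalized table of intensity values for the same arrays. From the deposited background-subtracted intensity of 43803 non-control spots, log2 values were quantile-normalized over the 51 arrays, outlier-flagged spots were set missing, and spots of 1 probe were averaged. Classes were compared with limma 3.58.1 (lmFit and eBayes) in R 4.3.3, with Benjamini-Hochberg adjustment over 43603 probes and a threshold of 0.05. Intervals are 95%. The number of arrays limits the precision. Tumors came from different dogs, on 15 slides and in 9 scan sessions. No 2 arrays held identical values.

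The study's test, SAM, was replaced by limma. Where a gene had several probes, the brightest stood for it. Genes named were those called in a class comparison (up to 8 each way, or with fewer calls the 5 next lowest p values), those with groups that did not overlap, ATP5B, complex II and NDUFA4L2, the 5 largest and 3 smallest SDs, and pathway genes called in both comparisons. Genes under locus numbers were named through RefSeq gene IDs, and older symbols were paired with current ones by hand. Subunits and assembly factors under locus numbers and mitochondrially encoded subunits were named beyond that rule. The members and lists were chosen with earlier results of these data known. The script was tested on simulated data. The results of 1 member gene are counted but not reported here.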

Additional observations from a re-analysis of the deposited data

Results flagged for a closer look

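In the 7 undifferentiated tumors outside the reference set, NDUFA8 was 11.74 in T49, and the next lowest tumor was at 12.54, a gap that Dixon's criterion marks as outlying. ATP5G3 was 2.125 in T80, the highest value of that group, with the next at 1.943, from a probe not well above background on any array. These were 2 of 36 groups of tumors examined for 18 genes, and chance marks about 1 in 20.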

How the results depend on the processing

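Under 14 alternatives of processing and model in each class comparison, no member called there changed sign, nor did any when 1 tumor was left out. The 8 genes called in the reference tumors became 0 with slide as a fixed block, 0 under the study's limits and 3 with scan session as a fixed block, an alternative chosen after seeing the data, 6 with age as a covariate, and 5 to 10 when single tumors were left out. Without T9 or T90 they were 5, with NDUFS1 and NDUFAF1 among those no longer called, and without T57 they were 10. Without LM0 they were 9, and the median over 44 genes turned to -0.03. The 5 genes called in the other tumors became 1 with slide as a fixed block, 3 with age as a covariate, 0 under the study's limits, 3 with scan session as a fixed block, and 3 to 6 when single tumors were left out. Without T80 or T132 they were 3, with NDUFAF2 and ATP5B lost, and without T114 they were 4, with NDUFAF2 and COX4NB lost. In the other tumors the fits with age or sex as a covariate also left out T132, which has neither stated. With 75th percentile scaling the difference between group medians in the reference tumors moved from 0.08 to 0.31 over all 44 genes and from 0.03 to 0.30 over the pooled core and accessory subunits of complex I. The cause was not tested. Sex and age gave 0 calls under every alternative run. No paired analysis was possible because each tumor came from another dog and the replicate numbers only name samples. Class, slide and scan session overlap in part, and 3 genes had no probe above background.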
